A study of Mus musculus with 8 samples.

Results

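The genes described here are 10 markers of pituicytes and astroglia: Gfap, Aqp4, S100b, Slc1a2, Slc1a3, Glul, Sox9, Nkx2-1, Rax and Aldoc. They were chosen by symbol from the expression table and joined to the count table by Ensembl identifier, which gave 10 of the 48526 genes of that table. All 10 were among the 15580 genes tested. They were measured by RNA-seq in 8 libraries of mouse neuro-intermediate lobe, the part of the pituitary that joins the neural lobe to the melanotropes of the intermediate lobe. Each library was made from a pool of 5 lobes of C57B6 mice, which per the study's methods were 3-month-old males. The 4 groups of 2 libraries were WT, POMC_ACreb3l2 Tg (called ACreb3l2), POMC_AXBP1 Tg (AXBP1) and the POMC_ACreb3l2/AXBP1 double Tg (ACreb3l2/AXBP1). Each transgene encodes an acidic dominant-negative protein that dimerizes with Creb3l2 or with XBP1, both transcription factors, and blocks DNA binding. A rat POMC promoter drives it in POMC cells, so the transgene is aimed at the melanotropes and not at the glia, and, although more than a single stable line was selected, the paper gives results for one of them. The comparison of the 4 groups asks how the levels of the glial genes of the lobe differ when the neighbouring melanotropes carry either or both transgenes.

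Pituicytes are the resident glia of the neural lobe. They surround the axon endings from which vasopressin and oxytocin are released, and they share much of their gene program with astrocytes of the brain. Astroglia take up glutamate through the transporters encoded by Slc1a3 and Slc1a2, turn it into glutamine with the synthetase encoded by Glul, build intermediate filaments from Gfap and pass water through the channel encoded by Aqp4. Nkx2-1 and Rax encode transcription factors of the ventral hypothalamus and infundibulum, from which the neural lobe grows.

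The labels name the cell type as melanotropes, but whole lobes were pooled. The melanotrope hormone gene Pomc had a mean of 119000 FPKM (fragments per kilobase of gene, scaled to library depth) in WT, and the glial genes were plainly present beside it. In such bulk tissue, fewer cells of a type and less RNA per cell cannot be told apart. Total counts ran from 28256086 to 37988912 per library, of which the 10 genes together took 0.125% to 0.188%. The lowest count of any of them in any library was 129, and counting error alone gives the lowest gene of a library a coefficient of variation of 6.02% to 8.8%. As a check of the labels, Creb3l2 had log2 changes against WT of -0.075 in ACreb3l2 (adjusted p = 0.874) and -0.45 in AXBP1 (adjusted p = 0.492), and it fell by 0.69 on the log2 scale with both transgenes (edgeR adjusted p = 0.0428). Those of Xbp1 were -0.46, 0.055 and 0.27 (adjusted p = 0.127, 0.9 and 0.227). Per the study's methods each construct holds the coding sequence of its factor from the leucine zipper onwards, so that transgene reads could add to the counts of that gene. Neither Creb3l2 in the libraries labelled ACreb3l2 nor Xbp1 in those labelled AXBP1 was called higher against WT. So the check with WT goes against what the labels would lead to, and the cause was not tested. Between transgenic groups, Xbp1 had a log2 change of 0.73 in ACreb3l2/AXBP1 against ACreb3l2 (edgeR adjusted p = 0.559), which goes the way of the labels. Creb3l2 had -0.24 in ACreb3l2/AXBP1 against AXBP1 (adjusted p = 0.651), which does not. Construct transcripts were also measured apart from the endogenous ones by RT-qPCR in the study, which is not analysed here. By that measure the paper reports more construct than endogenous mRNA in the lines it selected. Group names below stand for the libraries so labelled, and every direction given rests on those labels.

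Promoter sequences were read for elements of the factors that the transgenes block, although the transgenes are aimed at the melanotropes and not at the glia. Factors of the CREB3 family and XBP1 bind elements built on the core ACGT, which was therefore searched on both strands in windows from 250 bases before to 50 bases after the start site. RefSeq windows on GRCm38.p6, the assembly called mm10, were searched for 7 of the 10 genes. This gave 8 windows, since Aldoc has more than 1 start site. No window was matched for Sox9. Aqp4 and Rax were left out of the search, so that nothing is said here of their windows. The core stood in 2 of the 8 windows, those of Slc1a3 and Aldoc, beside 30.9% of all 32851 windows. The stretch upstream of S100b is shown because S100b had an adjusted p under 0.05 in a comparison below, though not under every alternative. That upstream of Slc1a3 is shown because it was the one with a core before the start site. Capitals mark the core.
S100b, chr10:76253586-76253835, plus strand: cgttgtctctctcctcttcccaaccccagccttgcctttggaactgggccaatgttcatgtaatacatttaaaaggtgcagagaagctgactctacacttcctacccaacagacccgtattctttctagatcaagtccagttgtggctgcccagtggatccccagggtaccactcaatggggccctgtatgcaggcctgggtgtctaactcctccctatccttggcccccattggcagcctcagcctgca
Slc1a3, chr15:8710808-8711057, minus strand: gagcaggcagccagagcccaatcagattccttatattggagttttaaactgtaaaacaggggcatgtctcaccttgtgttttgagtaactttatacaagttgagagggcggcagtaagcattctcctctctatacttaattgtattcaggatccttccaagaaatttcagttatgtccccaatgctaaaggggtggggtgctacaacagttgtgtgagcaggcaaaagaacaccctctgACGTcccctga
The other cores lay after the start site and are shown in 30 bases each.
Slc1a3, chr15:8710761-8710790, minus strand: atgaggtaattaaACGTggccttggagaag
Aldoc, chr11:78323088-78323117, plus strand: cccccagggagtcACGTagctctgcggcaa
The core of the upstream Slc1a3 stretch is part of a TGACGT, which 7.51% of all windows hold. TGACGTG stood in none of the 8 windows and in 2.01% of all. CCACG, which overlaps ACGT in CCACGT, was found in 1 window of Slc1a3 and in both windows of Aldoc, beside 32.8% of all. These are matches of letters, and no match in a window says nothing of what lies outside it.

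Per length, the 10 genes spanned almost 2 orders of magnitude in WT. Aldoc, which encodes the aldolase typical of brain glia, stood highest at 224 ± 27.5 FPKM (SD, n = 2), with 98.6% of tested genes below it. Glul followed at 220 ± 6.73 FPKM and did not differ from Aldoc beyond their spread. Slc1a3 was next with 50.2 ± 8.53 FPKM, clear of its neighbours in the order on both sides.

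Rax (19.4 ± 1.17 FPKM) and Gfap (14.2 ± 2.94 FPKM) formed the middle of the order and Slc1a2 stood at 7.81 ± 0.367 FPKM. The WT libraries of Rax, 20.3 and 18.6, lay above those of Gfap, 16.3 and 12.1. The transporter made more widely by astrocytes of the cerebral cortex, Slc1a2, thus stood below Slc1a3 in every one of the 8 libraries. Aqp4 (4.35 ± 0.989 FPKM), S100b (3.08 ± 0.656), Sox9 (2.83 ± 0.196) and Nkx2-1 (2.49 ± 0.41) closed the order. The WT libraries of the last 3 overlapped, and the lower Aqp4 library (3.65) lay just above the higher one of S100b (3.55).

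**Figure D1:**
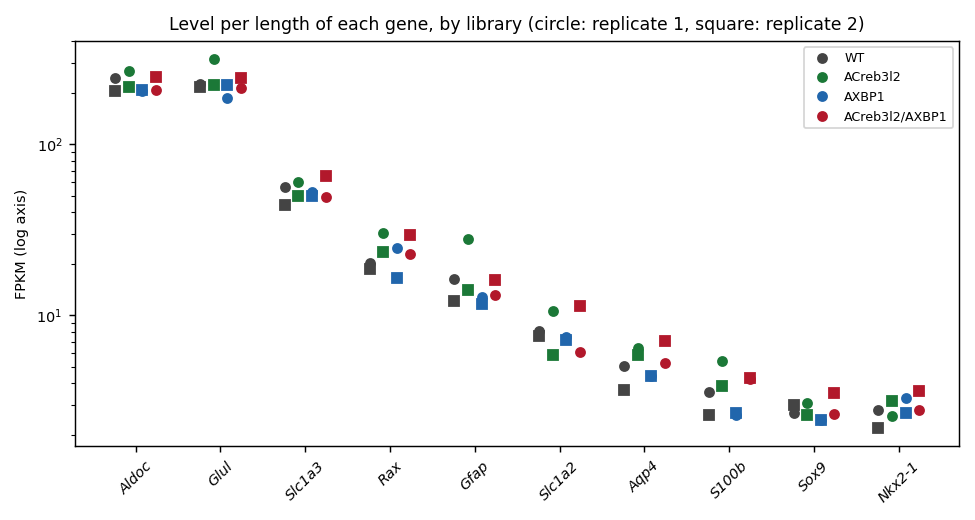
Levels of the 10 genes per length in FPKM (log axis), with 1 point per library, coloured by group, circles for replicate 1 and squares for replicate 2. The lowest Aldoc or Glul value is 185 FPKM, whereas S100b, Sox9 and Nkx2-1 lie between 2.2 and 5.43 FPKM.

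Counts below are normalized counts, that is, counts scaled to a common library size after TMM normalization, and they compare 1 gene between libraries. Genes with an edgeR adjusted p below 0.05 are said to be called. The plot of log2 changes with their intervals shows that most of the 10 genes were not called in any comparison. Of the 10 genes, edgeR called 0 in ACreb3l2 against WT, where 3 had an unadjusted p under 0.05 (16.8% of all tested genes) and DESeq2 called 1 higher, Aqp4 (1.08% of all). It called 0 in AXBP1 against WT, where 1 had an unadjusted p under 0.05 (9.97% of all) and DESeq2 called 0, beside 0.122% of all called higher. In ACreb3l2/AXBP1 against WT it called 1, again Aqp4. With both groups that carry the ACreb3l2 transgene set against both that do not, Aqp4 and S100b were called. All of these calls were of higher levels in the transgenic lobes, relative to the other RNA of each library. The paper reports less total RNA in the transgenic lobes, so that a level here is a share of RNA and not an amount per lobe. The part of that loss of RNA in the calls was not tested. Over all 15580 tested genes, 0.539% were called higher in ACreb3l2 against WT, 0% in AXBP1, 3.06% in ACreb3l2/AXBP1 and 1.76% with the ACreb3l2 transgene over both AXBP1 states.

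**Figure D2:**
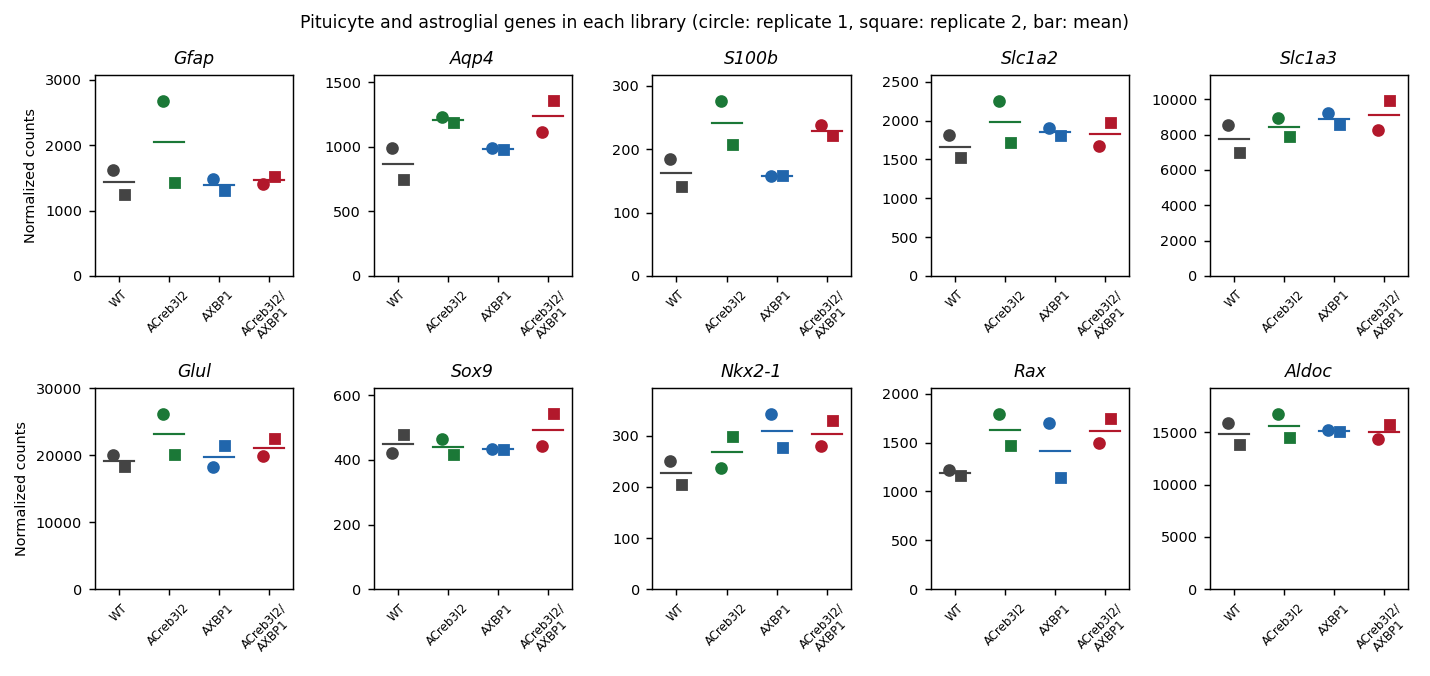
Normalized counts of each of the 10 genes in the 8 libraries, by group, with circles for replicate 1, squares for replicate 2 and bars for group means. For Aqp4 and S100b the 4 libraries with the ACreb3l2 transgene lie above the 4 without it, whereas Gfap is set apart by the single ACreb3l2 library at 2676.

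Aqp4 encodes the water channel of astroglial end-feet and lies on chromosome 18. Its normalized counts were 989.8 and 741.6 in the WT pools, 1228 and 1184 with ACreb3l2, 989.4 and 978 with AXBP1 and 1117 and 1356 with both transgenes. Every library with the ACreb3l2 transgene was above every library without it, and the AXBP1 libraries overlapped with WT. Against WT the log2 change was 0.48 ± 0.14 (SE, edgeR adjusted p = 0.115) in ACreb3l2 and 0.18 ± 0.141 (adjusted p = 0.646) in AXBP1. It rose 1.43-fold in ACreb3l2/AXBP1, a log2 change of 0.51 with a 95% interval of 0.20 to 0.83 (adjusted p = 0.0464). With the ACreb3l2 transgene over both AXBP1 states the rise was 1.32-fold, a log2 change of 0.40 ± 0.0989 (adjusted p = 0.0397). WT replicate 2 was the lowest of the 8 libraries. Without it the change in ACreb3l2/AXBP1 was 0.32 (adjusted p = 0.242), and without ACreb3l2/AXBP1 replicate 2 it was 0.36 (adjusted p = 0.336). That call was also lost when either ACreb3l2 library (adjusted p = 0.0656 and 0.0659) or either AXBP1 library (0.0813 and 0.0809) was left out of the shared fit, where the value itself stayed at 0.51 to 0.52. The pooled call was lost without WT replicate 2 (adjusted p = 0.0893), ACreb3l2 replicate 1 or 2 (0.104 and 0.103), AXBP1 replicate 1 or 2 (0.129 and 0.143) or ACreb3l2/AXBP1 replicate 2 (0.149). It was also lost with library size alone (0.0567), with the replicate block (0.0627) and in the 3 FPKM fits (0.104 to 0.204), and the call in ACreb3l2/AXBP1 with the block and in the FPKM fits.

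S100b encodes a calcium-binding protein of astroglia that folliculostellate cells of the pituitary also make. It lies at chr10:76253853-76261159 on the plus strand of mm10. Its normalized counts were 183.6 and 140.7 in the WT pools, 276.1 and 206.8 with ACreb3l2, 157.2 and 158.2 with AXBP1 and 237.3 and 221 with both transgenes. Here too all 4 libraries with the ACreb3l2 transgene were above the 4 without, and the AXBP1 libraries fell within the WT range. Against WT the log2 change was 0.58 ± 0.19 in ACreb3l2 (adjusted p = 0.154), -0.043 ± 0.194 in AXBP1 (adjusted p = 0.947) and 0.50 ± 0.19 with both transgenes (adjusted p = 0.118), none of them called. Over both AXBP1 states S100b rose 1.47-fold with the ACreb3l2 transgene, a log2 change of 0.56 with a 95% interval of 0.26 to 0.86 (edgeR adjusted p = 0.0373). Against the AXBP1 group the log2 change of S100b was 0.62 ± 0.19 in ACreb3l2 (adjusted p = 0.254) and 0.54 ± 0.19 in ACreb3l2/AXBP1 (adjusted p = 0.331). The pooled call was lost without WT replicate 2 or ACreb3l2 replicate 1 (adjusted p = 0.107 each), without AXBP1 replicate 1 or 2 (0.128 and 0.132) and without ACreb3l2/AXBP1 replicate 1 or 2 (0.0717 and 0.095), and in the 3 FPKM fits (0.0615 to 0.14). S100b shares 1731 bases with Dip2a on the opposite strand, and the sources used here do not state whether counting used strand, so that reads of the shared stretch are uncertain. Dip2a itself had a log2 change of 0.12 ± 0.0684 in the same comparison (adjusted p = 0.313).

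Aqp4 and S100b were thus 2 of 10 genes whose libraries with and without the ACreb3l2 transgene did not overlap, beside 5.12% of all tested genes not overlapping in this direction. For the AXBP1 transgene over both ACreb3l2 states 0 of the 10 were called, by edgeR or DESeq2, and 1 had an unadjusted p under 0.05 (15.7% of all tested genes). Of all tested genes edgeR called 0.0193% higher there and 0.0128% lower, and DESeq2 called 351 of 15580, 73 of them higher.

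Gfap encodes the filament protein by which astrocytes are most often recognised and lies at chr11:102887336-102900912 on the minus strand. Its normalized counts were 1620 and 1242 in the WT pools, 2676 and 1422 with ACreb3l2, 1478 and 1299 with AXBP1 and 1410 and 1517 with both transgenes. A single library, ACreb3l2 replicate 1, stood far above the other 7, and all groups overlapped with WT. The log2 change in ACreb3l2 was 0.52 ± 0.29 (adjusted p = 0.435). It was -0.0087 without ACreb3l2 replicate 1 (adjusted p = 0.986) and 0.91 without ACreb3l2 replicate 2 (adjusted p = 0.0421), so that the choice of library set the value. In ACreb3l2/AXBP1 the log2 change of Gfap was 0.032 ± 0.291 (adjusted p = 0.956), with a 95% interval from -0.67 to 0.74. Of the 10 genes Gfap had the widest intervals, and a change in either direction of the size seen for Aqp4 was not detectable for it here.

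The transcription factor genes Rax and Nkx2-1 had log2 changes of up to 0.46 against WT, and 0 of them were called. Rax, on chromosome 18, had 1217 and 1156 normalized counts in the WT pools, 1791 and 1460 with ACreb3l2, 1700 and 1134 with AXBP1 and 1492 and 1743 with both transgenes. Both groups with the ACreb3l2 transgene lay wholly above WT, whereas the AXBP1 libraries stood on either side of it. The log2 change of Rax was 0.46 ± 0.185 in ACreb3l2 (adjusted p = 0.266), 0.26 ± 0.186 in AXBP1 (adjusted p = 0.632) and 0.45 ± 0.185 with both transgenes (edgeR adjusted p = 0.152).

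Nkx2-1, at chr12:56531958-56536908 on the minus strand, followed another order. Its normalized counts were 250.6 and 204 in the WT pools, 237.4 and 298.2 with ACreb3l2, 342 and 276 with AXBP1 and 278.9 and 328.4 with both transgenes. The 4 libraries with the AXBP1 transgene lay above both WT libraries, and those of ACreb3l2 overlapped with WT. Its log2 change was 0.44 ± 0.181 in AXBP1 (adjusted p = 0.495) and 0.42 ± 0.18 in ACreb3l2/AXBP1 (adjusted p = 0.156). Over both ACreb3l2 states it was 0.32 ± 0.127 with the AXBP1 transgene (edgeR unadjusted p = 0.0328, adjusted p = 0.29).

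Sox9, at chr11:112782224-112787760 on the plus strand, encodes a transcription factor of astroglia that pituitary stem cells share. It had 420.6 and 476.6 normalized counts in the WT pools, 465.3 and 414.7 with ACreb3l2, 433.9 and 430.7 with AXBP1 and 444 and 541.5 with both transgenes. The groups overlapped with WT throughout. The log2 change of Sox9 ran from -0.052 ± 0.132 in AXBP1 to 0.14 ± 0.131 in ACreb3l2/AXBP1 (adjusted p = 0.9 and 0.506).

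The genes of glutamate uptake and of metabolism included the most deeply counted of the 10, and 0 of these 4 were called. Slc1a3, the glutamate transporter GLAST at chr15:8634124-8710764, had 8537 and 6935 normalized counts in the WT pools, 8943 and 7893 with ACreb3l2, 9233 and 8556 with AXBP1 and 8283 and 9916 with both transgenes. The AXBP1 libraries lay just above the higher WT library, and the other groups overlapped with WT. Its largest log2 change against WT was 0.23 ± 0.125 in ACreb3l2/AXBP1 (adjusted p = 0.238).

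Slc1a2, the transporter GLT-1 at chr2:102658659-102790784, had 1818 and 1513 normalized counts in the WT pools, 2256 and 1708 with ACreb3l2, 1909 and 1808 with AXBP1 and 1676 and 1974 with both transgenes. All its groups overlapped with WT, and its log2 changes were 0.25 ± 0.145, 0.16 ± 0.146 and 0.13 ± 0.145 (adjusted p = 0.428, 0.701 and 0.572). In AXBP1 the sign turned in the FPKM table, where the value was -0.091 on the log2(FPKM + 0.1) scale and the median of all genes was -0.17.

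Glul, the glutamine synthetase gene at chr1:153899944-153909723, had 20050 and 18200 normalized counts in the WT pools, 26150 and 20100 with ACreb3l2, 18200 and 21430 with AXBP1 and 19860 and 22450 with both transgenes. The ACreb3l2 libraries lay above WT, the second of them by very little. Its log2 change was 0.27 ± 0.139 in ACreb3l2 (adjusted p = 0.363) and 0.15 ± 0.139 in ACreb3l2/AXBP1 (adjusted p = 0.506). Aldoc, at chr11:78322968-78327781, had 15850 and 13760 normalized counts in the WT pools, 16730 and 14400 with ACreb3l2, 15180 and 15000 with AXBP1 and 14350 and 15700 with both transgenes. It was the steadiest of the 10, with a highest library 1.22 times the lowest and 95% intervals that kept its fold change against WT within a log2 change of -0.22 to 0.31 in all 3 groups.

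**Figure D3:**
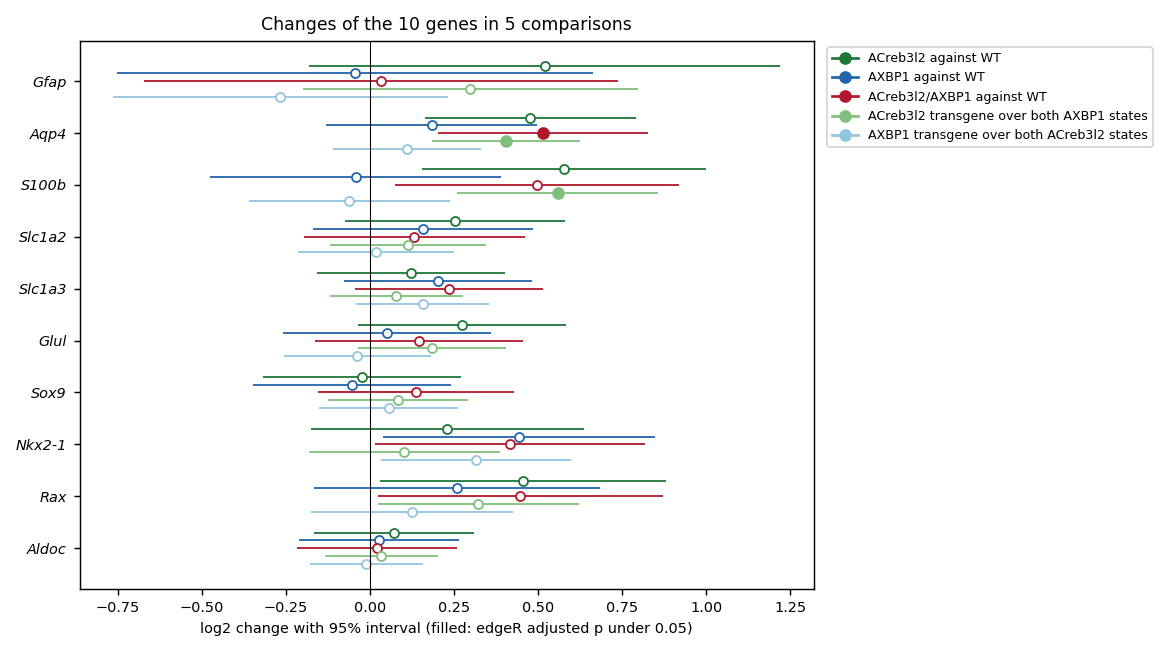
Log2 changes of the 10 genes (horizontal axis) with 95% intervals, 1 colour per comparison, filled where the edgeR adjusted p was under 0.05. The filled points are Aqp4 in ACreb3l2/AXBP1 against WT (0.51) and Aqp4 (0.40) and S100b (0.56) for the ACreb3l2 transgene over both AXBP1 states.

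Read gene by gene against WT, 9 of 10 changes were above 0 in ACreb3l2, with a median log2 change of 0.26 beside 0.0099 over all tested genes, and 51.8% of those were above 0. In AXBP1 7 of 10 were above 0 with a median of 0.10, beside 50.3% of all. In ACreb3l2/AXBP1 all 10 were above 0 with a median of 0.19, beside 51.7% of all tested genes above 0. The 3 comparisons share the WT libraries, and WT replicate 2 was the lowest of the 8 libraries for 7 of the 10 genes. Without WT replicate 2, 8 of 10 changes were above 0 with ACreb3l2, 5 with AXBP1 and 8 with both transgenes. Without ACreb3l2 replicate 1 the median in ACreb3l2 was 0.055 with 7 of 10 above 0, and without ACreb3l2 replicate 2 it was 0.45 with 10 of 10. The median in AXBP1 ran from 0.010 without WT replicate 2 to 0.23 without WT replicate 1, and was 0.069 without AXBP1 replicate 1. In ACreb3l2/AXBP1 it was 0.069 without ACreb3l2/AXBP1 replicate 2, with 7 of 10 above 0, 0.32 without replicate 1 of that group and 0.33 without WT replicate 1. Scaling also moved the counts above 0. In AXBP1 10 of 10 were above 0 when only library size was used and 4 of 10 in the FPKM table, where the median was -0.10. Libraries that did not overlap and lay above WT were seen for 4 of 10 genes in ACreb3l2 (Aqp4, S100b, Glul and Rax), beside 22.3% of all tested genes. The same held for 2 of 10 in AXBP1 (Slc1a3 and Nkx2-1, beside 22.3%) and 4 of 10 in ACreb3l2/AXBP1 (Aqp4, S100b, Nkx2-1 and Rax, beside 29.6%).

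The double transgenic group was compared with each single one to ask whether the second transgene added to the first. Against ACreb3l2, 0 of 10 genes were called by edgeR or DESeq2, 0 had an unadjusted p under 0.05 (7.14% of all tested genes) and 4 of 10 changes were above 0 (50.1% of all), from -0.49 ± 0.29 for Gfap to 0.19 ± 0.179 for Nkx2-1. Of all tested genes edgeR called 0% higher there, and DESeq2 called 36 in either direction. Against AXBP1, 0 of 10 were called by edgeR or DESeq2, beside 0.00642% of all called higher by edgeR, and the unadjusted edgeR p was under 0.05 for 2, S100b (0.0179) and Aqp4 (0.0394), beside 11.1% of all. DESeq2 called 283 of all tested genes against AXBP1, in either direction. The interaction, which is the change in ACreb3l2/AXBP1 less the sum of the changes in both single groups, was called for 0 of the 10 by edgeR or DESeq2, beside 0% of all called higher, and 0 had an unadjusted p under 0.05, beside 2.48% of all. DESeq2 called 4 of all tested genes for it. The log2 value of the interaction was -0.037 for S100b (95% interval -0.64 to 0.56) and -0.15 for Aqp4 (-0.59 to 0.30). The interval of Aqp4 ends below its log2 changes in ACreb3l2 and in ACreb3l2/AXBP1 against WT, and that of S100b ends between those of S100b. On the negative side both intervals hold values larger in size than these changes. In ACreb3l2 against AXBP1, where S100b alone had an unadjusted edgeR p under 0.05 (0.0087, beside 9.49% of all genes under 0.05), 0 of 10 were called by edgeR or DESeq2 and 0.0385% of all were called higher by edgeR. DESeq2 called 263 of all tested genes there, in either direction.

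Across the 8 libraries the 10 genes tended to be high and low together. Of their 45 pairs, 43 had a Pearson r of log2 levels above 0, with a median of 0.571. Slc1a2 and Aldoc were the closest pair (r = 0.943), then Gfap and Slc1a2 (0.844) and Aqp4 and S100b (0.832), while Gfap and Nkx2-1 were the farthest apart (-0.146). These are descriptions over 8 libraries that share their groups and their scaling. The mean of the 10 genes on the log2 scale, relative to WT, was 0.114 and -0.114 in the WT pools, 0.422 and 0.153 with ACreb3l2, 0.173 and 0.0671 with AXBP1 and 0.169 and 0.351 with both transgenes. It was highest in ACreb3l2 replicate 1, which was the highest library for 6 of the 10 genes, and next highest in ACreb3l2/AXBP1 replicate 2, the highest for 3. The protein-coding genes outside all gene lists whose pattern was most like the mean z-score of the 10 were Tspan5 (r = 0.983 over 8 libraries), Rnf44 (0.978), Magi3 (0.976), Dzip1l (0.974) and Nfkbia (0.973). Tspan5, a membrane tetraspanin gene, had 2703 and 2535 normalized counts in the WT pools, 3017 and 2694 with ACreb3l2, 2821 and 2686 with AXBP1 and 2720 and 3038 with both transgenes.

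Other genes of pituicytes and astroglia were read from a list of 36, of which 35 were tested. In ACreb3l2 against WT 1 was called higher and 0 lower, beside 0.539% and 2.5% of all tested genes, with 34 of 35 above 0 (51.8% of all) and a median log2 change of 0.19. The alternatives gave medians from 0.13 to 0.33 there, and 26 to 35 above 0. The called gene was Cspg5, a chondroitin sulfate proteoglycan gene of glia, at 876.2 and 967.4 normalized counts in WT and 1293 and 1205 in ACreb3l2, a log2 change of 0.44 ± 0.101 (edgeR adjusted p = 0.0486). In AXBP1 the median was 0.21 and 30 of 35 were above 0, but the alternatives gave medians from 0.013 to 0.27 and 18 to 31 above 0. There edgeR and DESeq2 called 0, and 6 reached an unadjusted p under 0.05, beside 9.97% of all. With both transgenes 3 were called higher and 0 lower, beside 3.06% and 6.99% of all, with a median of 0.23 and 30 of 35 above 0 (51.7% of all). The alternatives gave medians from 0.14 to 0.38 with both transgenes, and 24 to 32 above 0. The one below 0 in ACreb3l2 was Ttyh1, a tweety family chloride channel gene at a WT mean of 121 FPKM. Its log2 change was -0.52 ± 0.258 in ACreb3l2 (adjusted p = 0.378), -0.69 ± 0.259 in AXBP1 (0.495) and -0.78 ± 0.259 with both transgenes (0.105), the farthest from 0 of the list in that last group. Clu (-0.31), Aldh1l1 (-0.28), Sparcl1 (-0.12) and Ntsr2 (-0.11) were the others below 0 there, with adjusted p from 0.201 to 0.882.

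Those called in ACreb3l2/AXBP1 encode transcriptional regulators. Sox2, a factor of glial and pituitary progenitors, had 2757 and 2524 normalized counts in WT and 3155 and 3675 in ACreb3l2/AXBP1, a log2 change of 0.37 ± 0.0928 (adjusted p = 0.0354). Id4, an inhibitor of basic helix-loop-helix factors, went from 4640 and 4076 to 5629 and 6379 (log2 change 0.46 ± 0.119, adjusted p = 0.0386). Tbx3, a T-box factor of the infundibulum, went from 2273 and 2206 to 2683 and 3031 (0.35 ± 0.0976, adjusted p = 0.049). In each of them both transgenic libraries lay above both WT libraries. Sox2 was also called for the ACreb3l2 transgene over both AXBP1 states, at 0.25 ± 0.0656 (adjusted p = 0.0493), a call kept under 4 of 15 alternatives and lost without WT replicate 2, either ACreb3l2 library, either AXBP1 library or ACreb3l2/AXBP1 replicate 2. The abundant pituicyte genes Scn7a, of a sodium channel, and Col25a1 were not called, with log2 changes of 0.33 ± 0.23 and 0.38 ± 0.191 in ACreb3l2 (adjusted p = 0.52 and 0.364) and 0.53 ± 0.23 and 0.53 ± 0.191 with both transgenes (0.172 and 0.109). The counts of called genes rested on few libraries. In ACreb3l2 0 of the list were called when any 1 of the 8 libraries was left out. In ACreb3l2/AXBP1 0 were called without WT replicate 2, either AXBP1 library or ACreb3l2/AXBP1 replicate 2, 1 without either ACreb3l2 library, and 4 and 6 without WT replicate 1 and ACreb3l2/AXBP1 replicate 1.

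Genes of glutamate and glutamine handling outside the 10 were lower where they were called. Of 17 tested of 19, 3 were lower in ACreb3l2/AXBP1, beside 6.99% of all tested genes called lower, and 0 were higher. Slc38a1, a glutamine transporter gene, had 11930 and 12290 normalized counts in WT and 7422 and 6097 in ACreb3l2/AXBP1, a log2 change of -0.84 ± 0.121 (adjusted p = 0.00411). It stayed called under all 15 alternatives. Slc1a5, which exchanges glutamine and other neutral amino acids, went from 467.2 and 465.7 to 332.3 and 300 (-0.56 ± 0.121, adjusted p = 0.0211). Slc1a7, a low-level glutamate transporter gene, went from 51.48 and 58.89 to 8.9 and 1.775 (adjusted p = 0.0218). The transgenic libraries lay below WT for all 3. Without WT replicate 2 or ACreb3l2/AXBP1 replicate 2 only 1 of the list was called. In the single transgenic groups edgeR called 0 against WT, 5 (ACreb3l2) and 2 (AXBP1) of 17 reaching an unadjusted p under 0.05 beside 16.8% and 9.97% of all tested genes, and DESeq2 called 0 and 1, the latter lower beside 0.392% of all.

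Pituitary stem and folliculostellate cells share Sox9, Sox2 and S100b with the glia, and 12 of the 14 genes listed for them were tested. Lcn2, a secreted lipocalin gene, was the one called against WT, where 2.5% of all tested genes were called lower in ACreb3l2 and 6.99% with both transgenes. Normalized counts of Lcn2 were 4458 and 4060 in the WT pools, 2492 and 2073 with ACreb3l2, 2018 and 2230 with AXBP1 and 2296 and 1814 with both transgenes, all below WT. Its log2 change was -0.9 ± 0.129 in ACreb3l2 (adjusted p = 0.00587), -1.05 ± 0.129 with both transgenes (adjusted p = 0.00248) and -1 ± 0.129 in AXBP1 (adjusted p = 0.0769). Without ACreb3l2 replicate 2, 0 of the list were called in ACreb3l2. For the ACreb3l2 transgene over both AXBP1 states the cadherin gene Cdh26 was called higher (0.31 ± 0.0738, adjusted p = 0.0358), and the annexin gene Anxa1 (-0.43 ± 0.102, adjusted p = 0.0362) and Lcn2 (-0.47 ± 0.091, adjusted p = 0.0146) lower, beside 1.76% of all tested genes called higher and 4.99% lower. None was kept throughout, Cdh26 being called under 4, Anxa1 under 5 and Lcn2 under 10 of 15 alternatives. The list had a median of 0.15 in ACreb3l2, -0.069 in AXBP1 and -0.018 with both transgenes. Across the alternatives these medians ran from 0.024 to 0.23, from -0.27 to 0.068 and from -0.16 to 0.15.

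Of 10 listed markers of oligodendrocytes, all tested, 3 were called higher in ACreb3l2 against WT, beside 0.539% of all tested genes, and 9 of 10 changes were above 0, with a median log2 change of 0.62. They were Mobp (1.45 ± 0.249, adjusted p = 0.0206), Mbp (0.70 ± 0.142, adjusted p = 0.0347) and Cnp (0.52 ± 0.113, adjusted p = 0.0381), all genes of myelin. Mbp had 2061 and 2228 normalized counts in the WT pools, 3878 and 3073 with ACreb3l2, 2747 and 2322 with AXBP1 and 3131 and 2536 with both transgenes. Every transgenic library was above both WT libraries, and ACreb3l2 replicate 1 was the highest, as it was for Gfap, S100b and Glul. With both transgenes the median was 0.43. There edgeR called 0, DESeq2 called 3 higher beside 4.4% of all tested genes, and 3 reached an unadjusted p under 0.05 beside 29.7% of all. In AXBP1 the median was 0.31, and edgeR and DESeq2 called 0, while 2 reached an unadjusted p under 0.05 (9.97% of all).

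The mean log2 level of the oligodendrocyte list, relative to WT, was 0.0974 and -0.0974 in the WT pools, 0.928 and 0.505 with ACreb3l2, 0.562 and 0.0708 with AXBP1 and 0.645 and 0.413 with both transgenes. Its summed FPKM was 57.69 to 62.06 in WT, 85.07 to 126.5 with ACreb3l2, 60.01 to 74.84 with AXBP1 and 82.11 to 85.55 with both transgenes, and 0 of its 10 markers was at 0 in WT, the lowest, Sox10, having a WT mean of 0.348 FPKM. All 4 libraries with the ACreb3l2 transgene were above the WT range of the mean level, as they were for Aqp4 and S100b, and so was AXBP1 replicate 1. The part of oligodendrocytes in the results for Aqp4 and S100b was not tested. In ACreb3l2 against WT 0 of the oligodendrocyte list were called without WT replicate 1, WT replicate 2 or ACreb3l2 replicate 1.

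Genes of the melanotropes, the cells that carry the transgenes, had medians below 0 in the main fit. Across the alternatives the median ran from -0.26 to -0.044 in ACreb3l2, from -0.37 to 0.027 in AXBP1 and from -0.73 to -0.33 with both transgenes. Of 10 listed 9 were tested, with a median of -0.25 in ACreb3l2, -0.24 in AXBP1 and -0.57 with both transgenes, where Tbx19, the gene of the melanotrope factor Tpit (-0.88 ± 0.185, adjusted p = 0.0245), and the secretogranin gene Scg2 (-0.57 ± 0.128, adjusted p = 0.0253) were called lower, 2 of 9 beside 6.99% of all tested genes. Both calls were lost without WT replicate 2 or ACreb3l2/AXBP1 replicate 2, that of Tbx19 also without WT replicate 1 and that of Scg2 also without either AXBP1 library. Pomc took 6.91% to 14.6% of counts and had a log2 change of -0.84 ± 0.253 in ACreb3l2/AXBP1 (adjusted p = 0.0614). The summed FPKM of the list was 100800 to 145200 in WT and 62310 to 74710 in ACreb3l2/AXBP1, and it was lowest in ACreb3l2/AXBP1 replicate 2, the library in which Aqp4, Slc1a3 and Sox9 were highest. It was highest, as was the Pomc share (14.6%), in WT replicate 2, the lowest library for 7 of the 10 genes and one whose removal ended the calls of Aqp4 and S100b. The part of the melanotrope share in the results for the 10 genes was not tested.

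Endothelial genes, 10 of 10 tested, had a median of 0.022 in ACreb3l2, 0.44 in AXBP1 and 0.57 with both transgenes. Across the alternatives these medians ran from -0.41 to 0.30, from 0.19 to 0.65 and from 0.35 to 0.76. In each of these groups edgeR called 0 of them in the main fit. In the last group 3 had an unadjusted p under 0.05 (29.7% of all tested genes) and DESeq2 called 3 higher (4.4% of all). In the single transgenic groups both counts were 0, beside all-gene shares of 16.8% and 9.97% under 0.05 and of 1.08% and 0.122% called higher by DESeq2. Their summed FPKM was 48.7 to 63.1 in WT, 41.8 to 71.95 in ACreb3l2, 58.7 to 75.8 in AXBP1 and 67.5 to 91.6 in the double transgenic lobes, and their part in the results was not tested. For the AXBP1 transgene over both ACreb3l2 states the endothelial median was 0.50 with 10 of 10 above 0. There 6 had an unadjusted edgeR p under 0.05 (15.7% of all tested genes). Among 10 fibroblast and pericyte genes Fn1 was called lower in ACreb3l2/AXBP1 (-0.82 ± 0.168, adjusted p = 0.0189), and among 6 genes of the magnocellular axons the neurofilament gene Nefm (-0.95 ± 0.216, adjusted p = 0.0254), beside 6.99% of all tested genes called lower. Both calls were lost without WT replicate 2 or ACreb3l2/AXBP1 replicate 2, and that of Nefm also without either AXBP1 library. Of 10 macrophage and microglia genes and 8 anterior lobe genes 0 were called by edgeR or DESeq2 in the comparisons with WT, with at most 1 and 3 at an unadjusted p under 0.05. The anterior lobe median was -0.014 in ACreb3l2, -0.61 in AXBP1 and -0.024 with both transgenes. With the ACreb3l2 transgene over both AXBP1 states it was 0.36, beside 0.010 over all tested genes, and 8 of 8 changes were above 0. The part of anterior lobe tissue in the result for S100b was not tested.

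**Figure D4:**
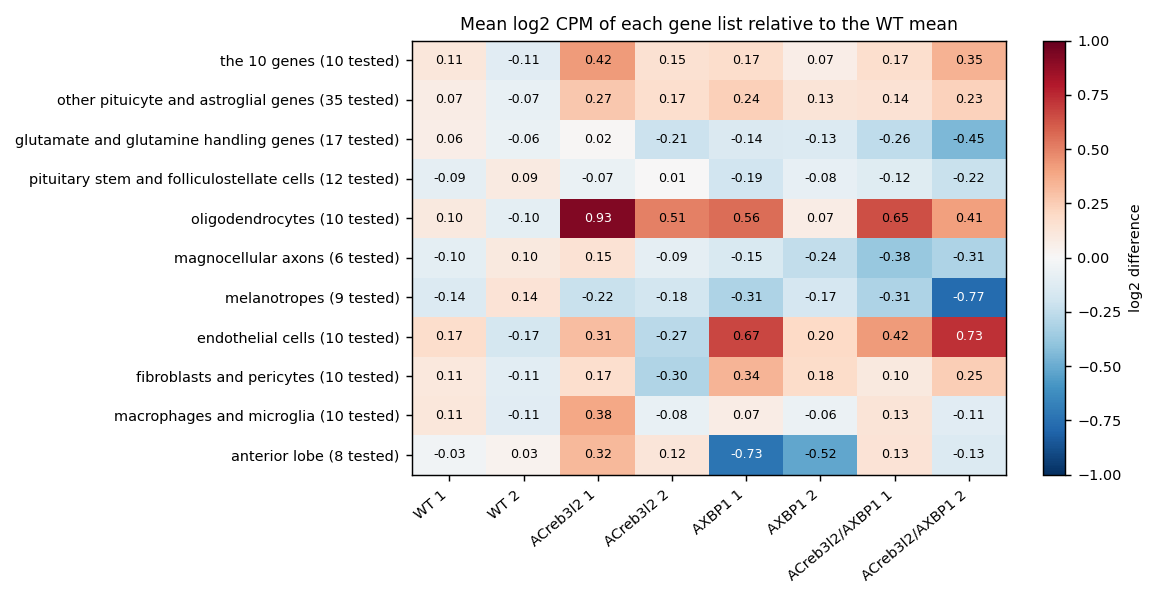
Mean log2 level (CPM) of each gene list in the 8 libraries relative to the WT mean, in log2 units, red for higher and blue for lower. The 10 glial genes stay between -0.11 and 0.42, oligodendrocyte genes reach 0.93 in ACreb3l2 replicate 1, and melanotrope genes lie at -0.77 in ACreb3l2/AXBP1 replicate 2.

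Aqp4 shares 7896 bases with an antisense gene that was not analysed here, so that reads of the shared stretch are uncertain as well. Gfap, Slc1a2, Slc1a3, Glul, Nkx2-1 and Rax overlap genes with a mean of at most 52.8 normalized counts, that of Teddm2 beside Glul, and Sox9 and Aldoc overlap none in the GENCODE M21 annotation.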

How the data were processed

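RNA was taken from 8 pools of 5 lobes. The labels name ribosomal depletion, whereas the study's methods describe a stranded mRNA kit. According to the methods and labels the authors trimmed reads with Trimmomatic, aligned them to mm10 with Tophat and deposited whole-number counts per gene from HTSeq-count. The list of software names another aligner, and the annotation release and the strand setting of the counting are not given in the sources used here. The FPKM table was deposited as the authors estimated it, and 51 genes split over several loci were summed. Genes with a mean count above 20 after median-ratio scaling were tested. Counts of all 8 libraries were fitted in edgeR 4.0.16 (R 4.3.3) with TMM normalization, a mean per group and the robust quasi-likelihood test, which leaves 4 residual degrees of freedom (median total 9.99 with the prior ones borrowed across genes), and the common biological coefficient of variation was 0.107. P-values were adjusted over the 15580 genes (Benjamini-Hochberg, two-sided). The SE and 95% intervals come from the same fit. Alternatives used DESeq2 1.42.0, library size alone, no filter, a replicate block, limma 3.58.1 on log2(FPKM + 0.1) and log2(FPKM + 1), and each library left out. The fits were tested on simulated data. TMM factors ran from 0.913 to 1.096. Levels of lists are means of log2 CPM with a prior count of 2. Named genes were the 10, Creb3l2, Xbp1 and Pomc, genes of each list called against WT or among the 4 most counted, and the 5 most similar genes. Sox10, Dip2a, Ttyh1, Aldh1l1, Col25a1, Ntsr2, Cdh26 and Anxa1 were named after their values were seen. A result for 1 listed gene is not reported here. The members and lists were chosen with earlier results of these data known. Nothing says that the pools came from separate cohorts, so p-values measure the spread between pools, which may be technical. Replicates differed by more than sampling noise, with a chi-square per degree of freedom of 9.97 to 44.9. No permutation test was run. Between 2 groups of 2 libraries an exact one could not pass 0.05.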

Additional observations from a re-analysis of the deposited data

How the results depend on the processing

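Of 750 log2 changes of the 10 genes, taken over 5 comparisons and 15 alternatives each, 647 kept their sign and their side of the threshold, 60 turned sign, 30 lost their call and 13 gained one. The cause was not tested. The number of the 10 genes called moved as follows. In ACreb3l2 against WT it was 1 under DESeq2 and 4 without the filter. In ACreb3l2/AXBP1 against WT it was 2 without the filter and 0 with the replicate block and in all 3 FPKM fits. In ACreb3l2 against AXBP1 it was 2, in ACreb3l2/AXBP1 against ACreb3l2 1 and for the AXBP1 transgene over both ACreb3l2 states 1 without the filter, from 0 in each. For the ACreb3l2 transgene over both AXBP1 states it was 1 under library size alone, 4 without the filter, 1 with the replicate block and 0 in the 3 FPKM fits. With each library left out in turn it ran from 0 to 1 in ACreb3l2 against WT and in ACreb3l2/AXBP1 against WT, and from 0 to 2 for the ACreb3l2 transgene. The call of Aqp4 in ACreb3l2/AXBP1 was lost under 10 of 15 alternatives (adjusted p from 0.000666 to 0.336). That of Aqp4 for the ACreb3l2 transgene was lost under 11 (9.45e-05 to 0.204) and that of S100b under 9 (0.000838 to 0.14), always with the same sign. Sign turned under library size alone for Sox9 in ACreb3l2 against WT (0.052), for Gfap (0.010), S100b (0.012) and Sox9 (0.011) in AXBP1 against WT, and for S100b (0.0089), Glul (0.034) and Aldoc (0.061) with the AXBP1 transgene over both ACreb3l2 states. It turned in the FPKM fits (pseudocount 0.1, 1, and 0.1 without a filter) in AXBP1 against WT for Slc1a2 (-0.0911, -0.0815, -0.0911), Glul (-0.117 each) and Aldoc (-0.111 each), and for the AXBP1 transgene for Slc1a2 (-0.00736, -0.00624, -0.00736) and Sox9 (-0.0512, -0.0368, -0.0512). The values that turned sign when a library was left out ranged, in ACreb3l2 against WT, -0.00867 to 0.907 for Gfap, -0.0214 to 0.28 for Slc1a3, -0.113 to 0.0657 for Sox9 and -0.0388 to 0.181 for Aldoc. They ranged, in AXBP1 against WT, -0.223 to 0.161 for Gfap, -0.01 to 0.408 for Aqp4, -0.221 to 0.164 for S100b, -0.0721 to 0.165 for Glul, -0.141 to 0.0385 for Sox9, -0.0655 to 0.518 for Rax and -0.072 to 0.133 for Aldoc. They ranged, in ACreb3l2/AXBP1 against WT, -0.152 to 0.237 for Gfap, -0.0219 to 0.272 for Sox9 and -0.0823 to 0.127 for Aldoc. They ranged, for the ACreb3l2 transgene over both AXBP1 states, -0.0189 to 0.0912 for Aldoc. They ranged, for the AXBP1 transgene over both ACreb3l2 states, -0.456 to 0.0016 for Gfap, -0.155 to 0.0552 for S100b, -0.0723 to 0.13 for Slc1a2, -0.126 to 0.0654 for Glul, -0.0258 to 0.123 for Sox9, -0.0368 to 0.255 for Rax and -0.0635 to 0.0476 for Aldoc. Library size alone moved the median of all genes in ACreb3l2/AXBP1 against WT from 0.012 to 0.17, with 1104 of 1650 calls higher in place of 477 of 1566. The FPKM fit moved it in AXBP1 against WT to -0.17. The number of genes called in ACreb3l2 against WT, 473, ran from 139 (FPKM, no filter) to 1455 (counts, no filter), and in ACreb3l2/AXBP1 against WT from 215 (without ACreb3l2/AXBP1 replicate 2) to 3209 (no filter). The replicate numbers share only a number: deviations of same-numbered libraries correlated at -0.197 to 0.0887. With the replicate block 321 and 1113 genes were called in these comparisons. Depth limits S100b and Nkx2-1 most, whose counts were lowest.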
